A study of Homo sapiens with 6 samples.

Results

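Heterotrimeric G proteins carry signals from G protein-coupled receptors into the cell, and RGS proteins switch those signals off. The genes described here are 38 named alpha, beta and gamma subunits and RGS (regulator of G protein signalling) proteins, chosen by gene symbol from a list. Of these, 33 had a row among the 18678 genes of the expression table, namely 12 alpha, 5 beta and 6 gamma subunits and 10 RGS proteins. GNA14, GNG7, RGS4, RGS9 and RGS11 were not analysed here. The samples were Cal27, an established cell line derived from a squamous cell carcinoma of the human tongue, and Cal27-shGRK2. By its name the latter is that line with a short hairpin targeting the RNA of GRK2, the kinase that phosphorylates activated receptors. Both were grown in medium with 10% serum and harvested at 70% confluency. The labels give neither the vector carried by the Cal27 cells nor the number of hairpins or clones. Each group had 3 libraries in the titles, but the columns of Cal27-shGRK2 replicates 0 and 1 were the same in all 18678 genes and were counted as 1 sample, called the shared library below. All comparisons are therefore of 3 Cal27 and 2 Cal27-shGRK2 libraries. For Cal27-shGRK2, the authors' condition value was at least 1 FPKM (the unit of level used below) in 13307 genes. It equalled the mean of the group's columns in 0.331% of these. The fold changes and marks in the authors' deposited table may therefore rest on values other than the columns analysed here. Nothing in the labels ties the libraries to separate cultures, so the p-values describe the spread between these libraries, which may be technical.

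A heterotrimer consists of a GTP-binding alpha subunit and a tightly joined beta-gamma pair. An activated receptor makes the alpha subunit exchange GDP for GTP, whereupon alpha and beta-gamma each act on their own effectors. Gs alpha subunits stimulate adenylyl cyclase, Gi/o subunits inhibit it, Gq/11 subunits activate phospholipase C beta, and G12/13 subunits form a family of their own with other effectors. RGS proteins speed the hydrolysis of GTP by alpha subunits. GRK2 itself meets this machinery directly: it binds beta-gamma through its C-terminal domain and Gq/11 alpha through an RGS homology domain.

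Levels are in FPKM, which divides fragment numbers by transcript length and library total, so they can be compared between genes. Sequencing depth could not be taken from these values, and no counting interval is given. The listed FPKM summed to 590163 to 644831 per library. GRK2, listed as ADRBK1, had 55.3, 59.4 and 55.8 FPKM in Cal27 against 17.3 and 16.6 FPKM in Cal27-shGRK2, a 3.35-fold lower mean. The exact two-sided permutation test over libraries gave p = 0.1, the smallest that 3 against 2 libraries allow. All 6 squamous epithelial markers examined were detected in both groups, but levels differed: their sum was 2751 to 3056 FPKM in Cal27 and 1101 to 1126 FPKM in Cal27-shGRK2, and KRT14 was at 16.5 to 20.9 FPKM in Cal27 against 0.235 and 0.160 FPKM in Cal27-shGRK2. The epithelial genes CDH1 and EPCAM went the other way, with 66.8 to 72.2 against 105.5 and 99.2 FPKM for CDH1 and 129.6 to 148.6 against 193.4 and 187.9 FPKM for EPCAM. Summed marker levels of other cell types were low. They were 4.35 to 4.71 and 4.38 to 4.46 FPKM for 4 listed fibroblast genes, 1.94 to 2.68 and 4.88 to 5.55 FPKM for 3 blood genes, and 3.503 to 3.97 and 6.80 to 7.01 FPKM for the endothelial gene CDH5. For 3 neural and melanocyte genes they were 1.93 to 2.05 and 2.76 to 2.83 FPKM. No listed marker was at 0 in every library.

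Of the G protein subunits and RGS proteins tested, 7 differed between the groups beyond the threshold and 20 did not. The alpha subunits GNAI1, GNAL and GNAS and the gamma subunit GNG12 were lower in Cal27-shGRK2, and the alpha subunit GNA12 and the RGS proteins RGS10 and RGS3 were higher. Of the 33 genes, 27 averaged 1 FPKM or more across the 5 libraries and were tested with limma on log2(FPKM + 1). Of these, 3 were higher, 4 were lower and 20 did not pass an adjusted p of 0.05. The share called, 25.9%, was near the background of 29.6% among all 13377 genes tested, of which 15% were called higher and 14.6% lower. The median log2 fold change was -6.1e-05 for the 27 genes and -0.0054 for all genes, and the median absolute log2 fold change was 0.11 and 0.14. None of the 27 both passed and reached an absolute log2 fold change of 1, as 2.51% of all genes did. Cal27 and Cal27-shGRK2 libraries were fully apart in 15 of the 27 genes, against 53.3% of all genes. In these bulk libraries a lower share of cells expressing a gene and less of its RNA per cell cannot be told apart. Without the shared library 4 of the 7 calls were made, 2 in each direction. After rescaling to a common total, 6 genes were higher and 4 lower, and over all genes the share of calls that were higher went from 50.7% to 65.3%.

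**Figure D1:**
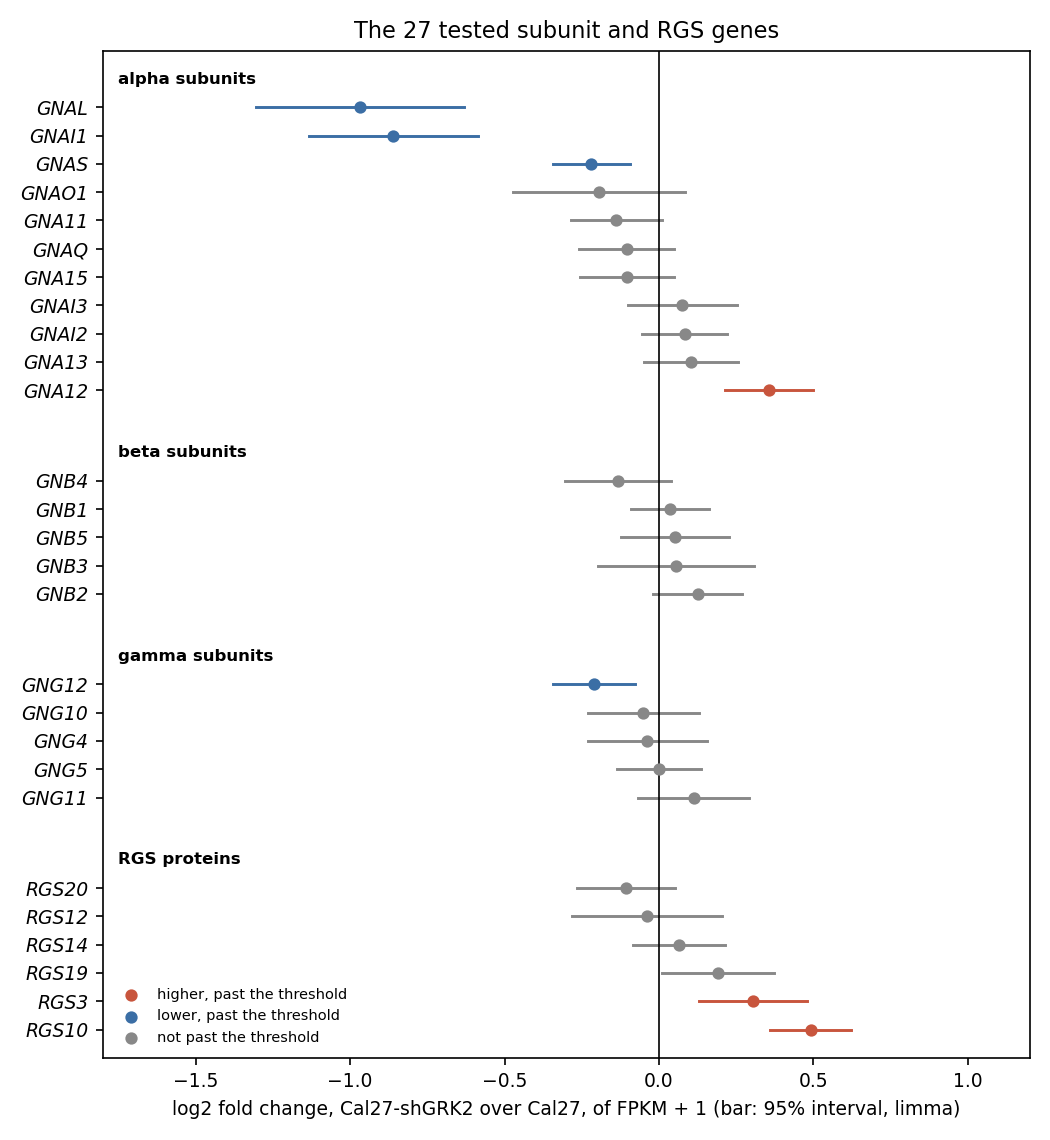
Log2 fold change of FPKM + 1 (x axis, Cal27-shGRK2 over Cal27) for the 27 tested genes by class, with points for the estimates and bars for 95% intervals from limma. The 7 coloured genes passed the threshold, the largest changes being GNAL (-0.97), GNAI1 (-0.86) and RGS10 (0.49), while the beta subunits lie within 0.14 of 0.

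Among alpha subunits, 1 rose (GNA12), 3 fell (GNAI1, GNAL and GNAS) and 7 did not pass (median log2 fold change -0.10). Calls thus made up 36.4% of 11 tested alpha genes, against 29.6% of all genes tested. GNAI1 encodes an inhibitory alpha subunit that lowers cyclic AMP (ENSG00000127955.16, chromosome 7 from 79768028 to 80226181, plus strand, in GENCODE version 29 on hg38). The authors list GNAI1 as ENSG00000127955.15, with a shorter span from 80133955 to 80219402. Its level was 11.3, 9.98 and 10.7 FPKM in the Cal27 libraries, 4.48 FPKM in the shared Cal27-shGRK2 library and 6.52 FPKM in replicate 2. Both Cal27-shGRK2 libraries lay below every Cal27 library, although they also differed from each other. The log2 fold change stood at -0.86 with an SE of 0.12 (limma, n = 3 and 2, adjusted p = 4.3e-04), a 1.94-fold lower mean. GNAI1 was past the threshold in all 15 alternative settings tried, at log2 fold changes from -1.09 to -0.63. The authors' deposited table also marks GNAI1 as significant, with a log2 fold change of -0.96.

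Of the other Gi/o subunits, GNAI2, GNAI3 and GNAO1 did not pass, and whether they differ from GNAI1 in response was not tested. GNAI2, the most abundant inhibitory subunit, had 82.6, 91.5 and 82.6 FPKM in Cal27 against 89.1 and 92.1 FPKM in Cal27-shGRK2. Its groups overlapped, and the interval of its log2 fold change ran from -0.05 to 0.22, although it passed with a common total (limma adjusted p = 0.049). GNAI3 had 5.57 to 5.94 FPKM in Cal27 against 5.87 and 6.48 FPKM in Cal27-shGRK2, with an interval of -0.10 to 0.25. The share of GNAI1 in the summed Gi/o FPKM was 11.2%, 9.12% and 10.6% in Cal27 and 4.44% and 6.14% in Cal27-shGRK2, whereas GNAI2 held 81.5% to 83.6% and 88.4% and 86.7%. GNAI1 was thus above GNAI3 in each Cal27 library, while in Cal27-shGRK2 GNAI1 was below GNAI3 in the shared library and level with it in replicate 2. GNAO1, the subunit best known from neurons, was at 1.21 to 1.95 FPKM in Cal27 against 1.34 and 1.03 FPKM in Cal27-shGRK2, with an interval of -0.47 to 0.08. GNAZ, a subunit of the same family that pertussis toxin does not modify, lay under the filter. It had 0.314, 0.433 and 0.252 FPKM in Cal27 against 0.0521 and 0.145 FPKM in Cal27-shGRK2, and the authors' deposited table marks it as significant and lower (log2 fold change -1.49, q = 0.035). With no filter its adjusted p in limma was 0.059.

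Both Gs-type subunits were lower. GNAS encodes the stimulatory alpha subunit (ENSG00000087460.24, listed by the authors as ENSG00000087460.23, chromosome 20 from 58839718 to 58911192 in GENCODE, plus strand). It was the highest of the 33 genes in each Cal27 library and came after the beta subunit GNB2 in both Cal27-shGRK2 libraries. It had 203, 209 and 201 FPKM in Cal27 against 171 and 179.9 FPKM in Cal27-shGRK2. The groups were apart but the difference was small, with the log2 fold change at -0.22 with an SE of 0.06 (limma, n = 3 and 2, adjusted p = 0.010). This call was lost without the shared library (adjusted p = 0.10), and the authors' deposited table does not mark GNAS (q = 0.15). RefSeq lists 6 starts for this gene, whose transcripts the gene-level value sums. GNAL encodes the Gs-type subunit of olfactory neurons and striatum (ENSG00000141404.15, chromosome 18 from 11688956 to 11885685, plus strand). Its level was 2.16, 3.01 and 1.74 FPKM in Cal27 against 0.522 and 0.829 FPKM in Cal27-shGRK2. Every Cal27-shGRK2 value was below 1 FPKM and every Cal27 value above it. The mean was 3.41-fold lower, and the log2 fold change stood at -0.97 with an SE of 0.15 (limma, n = 3 and 2, adjusted p = 5.3e-04). It was -1.63 with a pseudocount of 0.1, since the added 1 compresses values this low. Exons of MPPE1, on the opposite strand, cover 26.8% of the exonic bases of GNAL in GENCODE. MPPE1 had 16.1 to 17.8 FPKM in Cal27 against 12.7 and 14.2 FPKM in Cal27-shGRK2 (log2 fold change -0.32, limma adjusted p = 0.0045), a call lost without the shared library (adjusted p = 0.091). The library kit is stranded, but no source used here says whether counting used the strand, and the part of MPPE1 in the GNAL values was not tested.

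The G12/13 pair was the one alpha family with a member that rose. GNA12 (ENSG00000146535.13, chromosome 7 from 2728112 to 2844324, minus strand) had 59.7, 67.7 and 61.0 FPKM in Cal27 against 79.2 and 81.8 FPKM in Cal27-shGRK2. Both Cal27-shGRK2 libraries were above all of Cal27. The log2 fold change stood at 0.36 with an SE of 0.07 (limma, n = 3 and 2, adjusted p = 8.2e-04), and GNA12 was past the threshold in all 15 alternatives, at 0.32 to 0.41. GNA13 had 13.3, 12.7 and 13.4 FPKM in Cal27 against 13.7 and 14.6 FPKM in Cal27-shGRK2. Its groups did not overlap, yet its log2 fold change, 0.10, did not reach the threshold (limma adjusted p = 0.31, interval -0.05 to 0.25). The 3 listed Gq/11 subunits did not pass either, with log2 fold changes of -0.14 for GNA11, -0.10 for GNAQ and -0.10 for GNA15. GNA11 was at 26.0 to 29.3 FPKM in Cal27 against 24.9 and 24.6 FPKM in Cal27-shGRK2, with an interval of -0.28 to 0.01. GNAQ was at 10.1 to 10.3 FPKM and at 9.50 and 9.32 FPKM. GNA15, a subunit that couples to many receptors and is best known from blood cells and epithelia, was at 15.6 to 16.9 FPKM and at 15.4 and 14.4 FPKM. In each of these genes both Cal27-shGRK2 libraries lay below Cal27, by no more than 0.14 on the log2 scale between the means. Such separation of the groups, in either direction, was found in 53.3% of all genes tested.

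**Figure D2:**
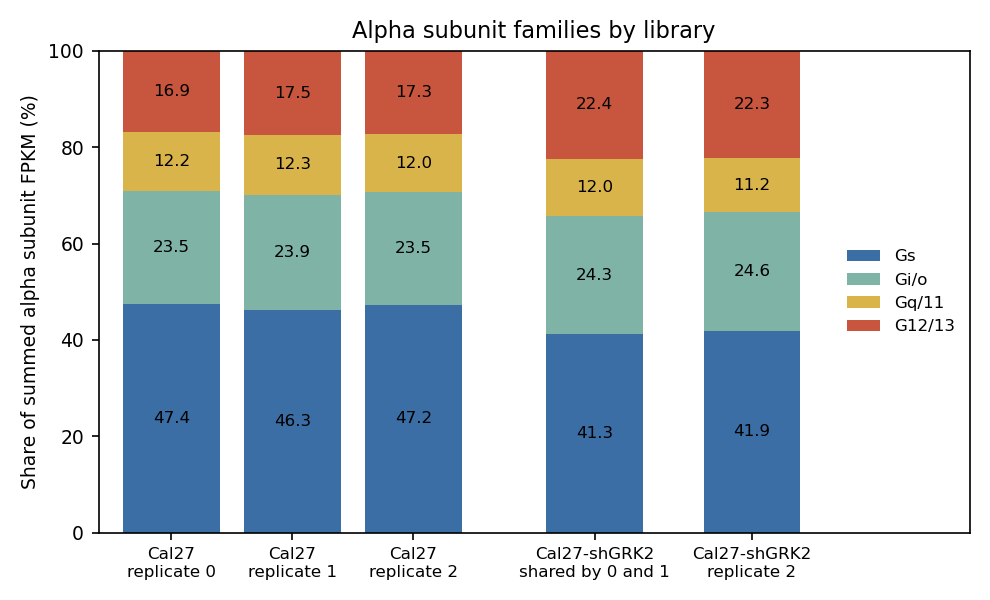
Share of each alpha subunit family in the summed alpha subunit FPKM (y axis, percent) in each of the 5 distinct libraries, with no averaging. Gs holds 46.3% to 47.4% in Cal27 and 41.3% and 41.9% in Cal27-shGRK2, and G12/13 holds 16.9% to 17.5% and 22.4% and 22.3%.

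By family, Gs held less and G12/13 more of the summed alpha subunit FPKM in both Cal27-shGRK2 libraries than in any Cal27 library. Summed Gs FPKM was 205, 212 and 203 in Cal27 and 171 and 180.7 in Cal27-shGRK2, nearly all of it GNAS (98.6% to 99.1% in Cal27). Summed G12/13 FPKM was 73.0, 80.4 and 74.4 in Cal27 and 92.9 and 96.4 in Cal27-shGRK2, of which GNA12 held 81.8% to 84.2% and 85.3% and 84.8%. Summed Gi/o FPKM overlapped between groups, at 101 to 109 and at 101 and 106. Gq/11 took 12.04% to 12.3% of the alpha total in Cal27 and 11.99% and 11.2% in Cal27-shGRK2. These sums describe messenger RNA and were not tested.

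GNAI1, which was lower, and GNA12, which was higher, both passed in every alternative. They are shown with their promoter sequence as the clearest change in each direction among alpha subunits averaging at least 5 FPKM. RefSeq (GRCh38.p14) lists 2 starts for each gene, and the 250 bases before the first listed start are printed 5′ to 3′, at chr7:80134581-80134830 on the plus strand for GNAI1 and chr7:2844309-2844558 on the minus strand for GNA12. The motifs searched were the GC box GGGCGG, the CCAAT box CCAAT, the E-box CACGTG, the cyclic AMP response element core motif TGACG, the TATA box TATAAA and the AP-1 site TGANTCA. Capitals mark the matches, on either strand.
GNAI1: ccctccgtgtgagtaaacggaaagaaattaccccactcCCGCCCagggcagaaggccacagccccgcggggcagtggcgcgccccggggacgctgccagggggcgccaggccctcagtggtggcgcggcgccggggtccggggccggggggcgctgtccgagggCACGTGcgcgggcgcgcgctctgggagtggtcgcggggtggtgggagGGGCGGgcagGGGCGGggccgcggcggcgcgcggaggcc
GNA12: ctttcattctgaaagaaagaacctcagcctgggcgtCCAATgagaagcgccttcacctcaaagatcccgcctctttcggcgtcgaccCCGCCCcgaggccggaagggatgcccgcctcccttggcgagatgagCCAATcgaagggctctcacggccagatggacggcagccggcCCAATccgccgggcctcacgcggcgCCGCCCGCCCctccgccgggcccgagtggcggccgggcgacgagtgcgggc
Both promoters hold 3 GC boxes, of which a pair overlap each other in GNA12. GNAI1 has 1 E-box, from 86 to 81 bases before the start, and GNA12 has 3 CCAAT boxes, the nearest from 76 to 72 bases before it. Over all 35116 RefSeq promoters of this length, 42.6% hold a GC box, 32.0% a CCAAT box, 6.34% an E-box, 21.2% the core motif, 10.7% the TATA box and 6.57% the AP-1 site. Among the 32 named genes with an entry, first starts held a GC box in 21 (65.6%) and a TATA box in 0. The shares over all promoters count every listed start of a gene, so they differ in unit from those of first starts. These matches describe letters and are not evidence of binding. The table does not separate the starts of a gene, so the values cannot be assigned to one promoter.

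The beta subunits, which hold gamma and dock on effectors and on GRK2, did not pass in any of 5 cases. Over all genes tested 29.6% passed. GNB2 was the most abundant, with 173, 199.8 and 179 FPKM in Cal27 against 203 and 197 FPKM in Cal27-shGRK2. Its groups overlapped, with a log2 fold change of 0.13 (interval -0.02 to 0.27, limma adjusted p = 0.19). It passed after rescaling to a common total (adjusted p = 0.032) and without Cal27 replicate 1 (0.023). GNB1 had 102, 106 and 101 FPKM in Cal27 against 104 and 107 FPKM in Cal27-shGRK2, a difference within an interval of -0.09 to 0.16. GNB4 was at 8.54 to 9.41 FPKM in Cal27 against 7.63 and 8.54 FPKM in Cal27-shGRK2, and 27.6% of its exonic bases lie opposite the antisense gene AC007620.2. GNB5, the divergent beta subunit that pairs with RGS proteins of the R7 group in place of gamma, was at 11.8 to 13.5 FPKM and at 12.3 and 14.2 FPKM. GNB3, known from cone photoreceptors, was near the filter at 0.905 to 1.29 FPKM and 1.25 and 1.01 FPKM. Of the R7 group, RGS7, named after its values were seen, lay under the filter with 0.223 to 0.315 FPKM in Cal27 against 0.920 and 0.928 FPKM in Cal27-shGRK2. The summed beta FPKM was 296 to 329 in Cal27 and 328 in each Cal27-shGRK2 library.

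Of 5 tested gamma subunits, small lipid-modified proteins that anchor the beta-gamma pair to the membrane, 1 fell and 4 did not pass. Calls thus made up 20%, against 29.6% of all genes tested. GNG12 (ENSG00000172380.5, chromosome 1 from 67701466 to 67833467, minus strand) had 43.2, 44.6 and 45.6 FPKM in Cal27 against 37.2 and 39.4 FPKM in Cal27-shGRK2. All Cal27 libraries lay above both Cal27-shGRK2 libraries. The log2 fold change stood at -0.21 with an SE of 0.06 (limma, n = 3 and 2, adjusted p = 0.019). That call failed in limma without trend (adjusted p = 0.051) and on leaving out the shared library (0.17) or Cal27 replicate 2 (0.080), and the authors' deposited table does not mark it (q = 0.11). GNG5, the most abundant gamma gene, had 126, 140.3 and 133 FPKM in Cal27 against 129.7 and 137 FPKM in Cal27-shGRK2, with an interval of -0.14 to 0.14. GNG10 was at 57.1 to 71.5 FPKM in Cal27 against 60.05 and 61.5 FPKM in Cal27-shGRK2. In GENCODE 73.1% of its exonic bases are also part of the read-through gene DNAJC25-GNG10, so the split of fragments between them is uncertain. GNG11 was at 8.30 to 9.18 FPKM and 8.86 and 10.4 FPKM, and GNG4 at 3.76 to 4.37 FPKM and 3.86 and 4.02 FPKM. GNG2 lay under the filter at 0.164 to 0.418 FPKM over all 5 libraries. Processed pseudogenes named after GNG5 number 4 in GENCODE and could share its fragments. Those named after GNAI2, GNAQ, GNG10 and RGS17 could likewise share fragments of these genes. Of the exonic bases of GNG5, 30.9% are also part of AL359762.3 on the same strand, which had no row. By level the gamma genes kept the order GNG5, GNG10, GNG12, GNG11 and GNG4 in each of the 5 libraries, and each neighbouring pair in this order was separated in every library.

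**Figure D3:**
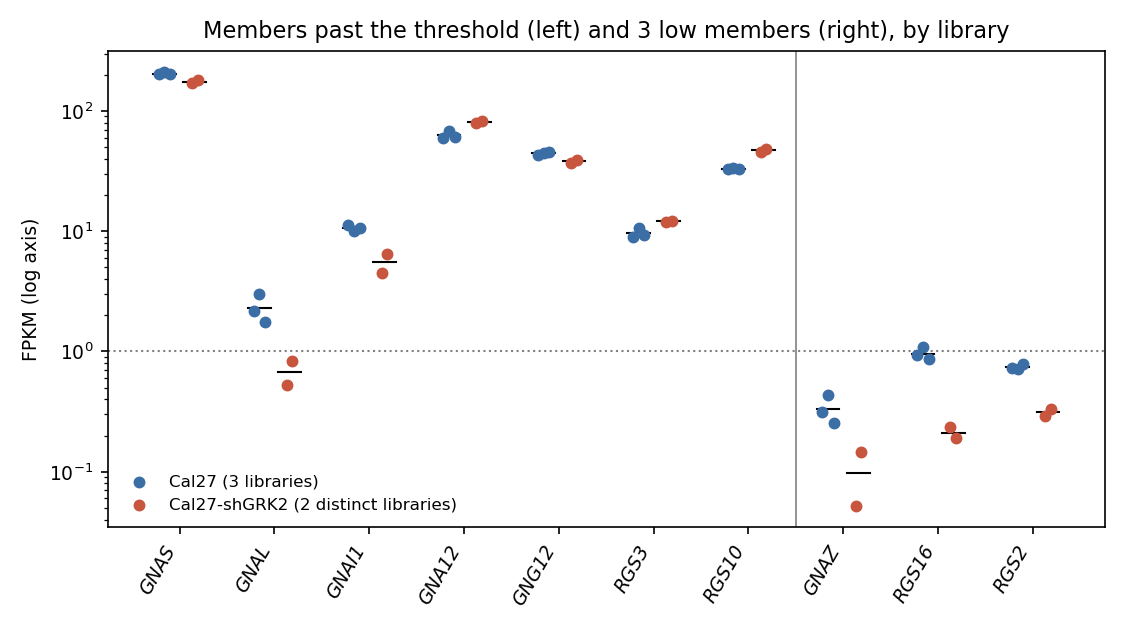
FPKM per library (y axis, log scale) for the 7 genes past the threshold and for GNAZ, RGS16 and RGS2, which lie under the filter of a mean of 1 FPKM. Blue points are the 3 Cal27 libraries, red points the 2 distinct Cal27-shGRK2 libraries, black lines the group means and the dotted line 1 FPKM. The 10 genes were picked for their differences, so that their groups do not overlap follows from the choice. Over all genes tested the groups were apart in 53.3%. Also under the filter, but not shown, are RGS17, which was higher in Cal27-shGRK2 without overlap, and GNG2 and RGS5, whose groups overlapped. The lowest values are those of GNAZ in Cal27-shGRK2 (0.0521 and 0.145 FPKM).

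Of 6 tested RGS proteins, 2 rose and 4 did not pass (median log2 fold change 0.13). Calls thus made up 33.3%, against 29.6% of all genes tested. RGS10, a small RGS protein that acts on Gi/o subunits and is abundant in immune cells, was the highest of the 10 (ENSG00000148908.14, chromosome 10 from 119499828 to 119542708, minus strand). It had 33.1, 33.6 and 32.9 FPKM in Cal27 against 45.9 and 48.3 FPKM in Cal27-shGRK2. The Cal27 values were close together, and both Cal27-shGRK2 values stood well above them. The mean was 1.42-fold higher, with the log2 fold change at 0.49 with an SE of 0.06 (limma, n = 3 and 2, adjusted p = 1.9e-05). RGS10 was past the threshold in all 15 alternatives, at 0.46 to 0.55, and the authors' deposited table marks it too (log2 fold change 0.53). The blood gene CD68 was also higher in Cal27-shGRK2, at 0.766 to 1.18 FPKM against 4.30 and 3.52 FPKM, while CD14 was at 0.706 to 1.15 and 0.527 and 0.732 FPKM. The part of these markers in the RGS10 result was not tested. RGS3, which acts on Gi/o and Gq/11 subunits and binds beta-gamma, had 8.97, 10.7 and 9.26 FPKM in Cal27 against 11.98 and 12.2 FPKM in Cal27-shGRK2 (ENSG00000138835.22, chromosome 9 from 113444731 to 113597743, plus strand). The groups did not overlap, with the log2 fold change at 0.31 with an SE of 0.08 (limma, n = 3 and 2, adjusted p = 0.011). Its call was lost without either Cal27-shGRK2 library (adjusted p = 0.068 without the shared library and 0.089 without replicate 2).

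The other 4 tested RGS genes did not pass. RGS19 (GAIP), an RGS protein of Gi/o subunits, had 8.51, 10.0 and 9.66 FPKM in Cal27 against 10.2 and 11.5 FPKM in Cal27-shGRK2. Its log2 fold change, 0.19, did not reach the threshold (interval 0.01 to 0.37, limma adjusted p = 0.11), but passed on rescaling to a common total (adjusted p = 0.029) and with an additional library computed from the authors' condition value (0.021). RGS14, which carries a GoLoco motif that holds inactive Gi alpha, was at 12.6 to 12.98 FPKM and at 13.1 and 13.7 FPKM. RGS20, which acts on Gz and other Gi/o subunits, was at 12.3 to 13.9 FPKM and at 12.1 and 12.1 FPKM. RGS12, a large scaffold with an RGS domain, was at 4.12 to 5.67 FPKM and at 4.23 and 4.94 FPKM. The summed RGS FPKM was 82.1, 87.6 and 86.7 in Cal27 and 99.2 and 103.8 in Cal27-shGRK2, of which RGS10 held 37.9% to 40.3% and 46.2% and 46.5%.

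RGS16, RGS2, RGS5 and RGS17 lay under the filter. RGS16, an inducible RGS protein of Gi/o and Gq/11 subunits (chromosome 1 from 182598623 to 182604408, minus strand), had 0.933, 1.09 and 0.863 FPKM in Cal27 against 0.234 and 0.189 FPKM in Cal27-shGRK2. RGS2, an inducible RGS protein that prefers Gq (chromosome 1 from 192809039 to 192812283, plus strand), had 0.733, 0.710 and 0.794 FPKM in Cal27 against 0.292 and 0.332 FPKM in Cal27-shGRK2. Both Cal27-shGRK2 libraries were below all of Cal27 in each gene, by 4.54-fold for RGS16 and 2.39-fold for RGS2 between the means. With no filter, 9 of the 33 genes were called, against 21.9% of all genes, and limma gave log2 fold changes of -0.69 for RGS16 (adjusted p = 7.0e-04) and -0.41 for RGS2 (adjusted p = 0.0080). The authors' deposited table marks both as significant, with log2 fold changes of -2.24 and -1.18, and q = 6.1e-04 for each. Of the 33 genes, 8 carry the authors' mark, 3 as higher and 5 as lower, against 15.4% of all genes, 8.28% marked higher and 7.08% marked lower, and 3 of these 8 (RGS16, RGS2 and GNAZ) are among the 6 genes under the filter, where the background is 11.6%. RGS17 was at 0.274 to 0.359 FPKM in Cal27 against 0.479 and 0.457 FPKM in Cal27-shGRK2. RGS5, known from pericytes, was at 0.456 to 0.696 FPKM in Cal27 but 0.744 and 0.111 FPKM in the Cal27-shGRK2 libraries, which thus lay on either side of Cal27.

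The RGS genes with the clearest differences, RGS10 upward and RGS16 and RGS2 downward, are shown with the 250 bases before their first RefSeq start, marked as above. They lie at chr10:119542720-119542969 (minus strand), chr1:182604390-182604639 (minus strand) and chr1:192808789-192809038 (plus strand).
RGS10: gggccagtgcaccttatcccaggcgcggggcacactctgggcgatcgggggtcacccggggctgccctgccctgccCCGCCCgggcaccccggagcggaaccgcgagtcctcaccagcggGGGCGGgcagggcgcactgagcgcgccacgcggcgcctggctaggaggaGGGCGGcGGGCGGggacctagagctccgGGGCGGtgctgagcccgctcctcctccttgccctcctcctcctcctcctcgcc
RGS16: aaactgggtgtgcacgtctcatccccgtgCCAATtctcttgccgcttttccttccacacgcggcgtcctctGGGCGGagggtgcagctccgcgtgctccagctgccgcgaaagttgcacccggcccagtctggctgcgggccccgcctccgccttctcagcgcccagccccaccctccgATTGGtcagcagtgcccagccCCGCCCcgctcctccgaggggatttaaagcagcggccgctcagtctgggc
RGS2: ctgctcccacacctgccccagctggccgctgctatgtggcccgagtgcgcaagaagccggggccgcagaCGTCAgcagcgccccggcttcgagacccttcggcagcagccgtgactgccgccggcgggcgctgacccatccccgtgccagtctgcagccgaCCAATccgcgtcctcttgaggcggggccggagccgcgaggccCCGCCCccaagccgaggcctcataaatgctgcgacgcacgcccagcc
RGS10 holds 5 GC boxes and none of the other motifs, and the bases after its start were not found in a GENCODE transcript of the gene. RGS16 holds 2 CCAAT and 2 GC boxes. RGS2 holds 1 CCAAT box, 1 GC box and, on the opposite strand from 181 to 177 bases before the start, 1 cyclic AMP response element core motif. Such a core motif occurs in 5 of the 32 first-start promoters (15.6%). Over all promoters, where every listed start counts, it occurs in 21.2%.

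A further list of 42 genes held those on which the subunits act, or which act on the subunits, and 16 other subunit and RGS genes. Of the latter 16, 3 had a row and 0 were tested. Of the 42, 22 had a row and 17 were tested. Of these, 2 rose, 5 fell and 10 did not pass (median log2 fold change -0.05), and the background of calls is again 29.6%. The count fell to 3 without Cal27 replicate 2 or without the shared library, and to 4 without Cal27 replicate 1 or Cal27-shGRK2 replicate 2. Of the 4 phospholipase C beta enzymes, the effectors of Gq/11, 1 rose and 3 fell, and the calls of PLCB2 and PLCB3 depended on the setting. PLCB1 had 4.39, 4.16 and 5.40 FPKM in Cal27 against 1.29 and 1.1995 FPKM in Cal27-shGRK2, far apart, with the log2 fold change at -1.33 with an SE of 0.11 (limma, n = 3 and 2, adjusted p = 1.8e-07). PLCB4 rose, from 1.30, 0.740 and 1.30 FPKM to 2.71 and 2.36 FPKM (log2 fold change 0.75). PLCB3, the most abundant at 34.2 to 36.0 FPKM in Cal27 against 30.0 and 31.5 FPKM in Cal27-shGRK2, fell by 0.18 on the log2 scale. PLCB2, at 0.9997 to 1.43 and 0.756 and 0.702 FPKM, fell by 0.34. The calls of PLCB3 and PLCB2 were weak, at limma adjusted p = 0.038 and 0.039, and each was lost without either Cal27-shGRK2 library (adjusted p = 0.23 and 0.082 for PLCB3, 0.13 and 0.18 for PLCB2). PLCB2 lay at the filter, with a mean below 1 FPKM in Cal27-shGRK2, and its adjusted p was 0.052 with no filter, 0.057 with a common total and 0.086 under quantile normalization. PLCB3 had 0.052 with no filter, 0.066 with a common total and 0.073 in limma without trend. PLCB3 missed the threshold as well when Cal27 replicate 0, 1 or 2 was left out (adjusted p = 0.071, 0.058 and 0.068).

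**Figure D4:**
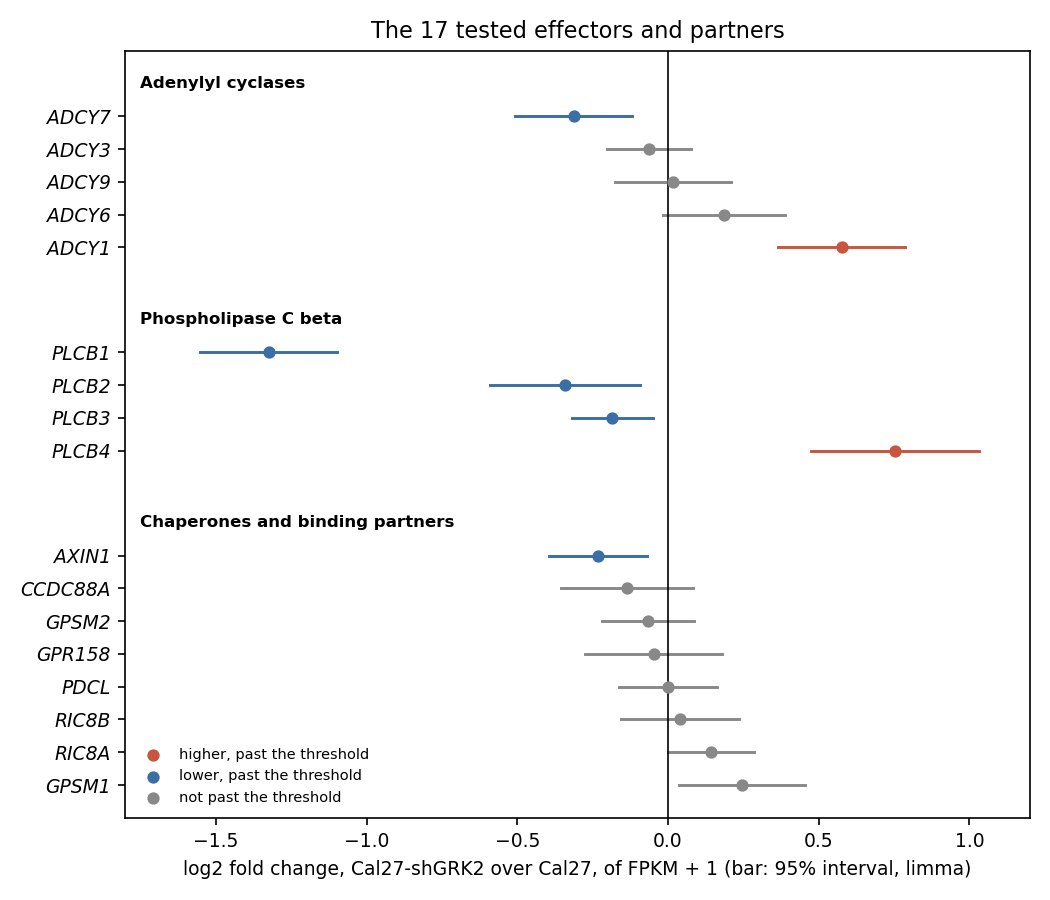
Log2 fold change of FPKM + 1 (x axis, Cal27-shGRK2 over Cal27) for the 17 tested effectors and partners, with points for the estimates and bars for 95% intervals from limma. PLCB1 (-1.33) and PLCB4 (0.75) are the extremes, and 7 genes passed, 2 higher and 5 lower.

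Of 5 tested adenylyl cyclases, the enzymes that Gs and Gi/o regulate, ADCY1 rose, ADCY7 fell and 3 did not pass. ADCY1, a calcium-sensitive cyclase, had 7.89, 10.4 and 9.52 FPKM in Cal27 against 13.6 and 14.8 FPKM in Cal27-shGRK2 (log2 fold change 0.58, limma adjusted p = 5.1e-04). ADCY7 had 6.22, 7.34 and 7.37 FPKM and 5.14 and 5.68 FPKM (log2 fold change -0.31, limma adjusted p = 0.017), a call that failed on leaving out Cal27 replicate 1 (adjusted p = 0.052), Cal27 replicate 2 (0.051) or the shared library (0.17). Outside the naming rule and chosen after their values were seen are ADCY3 and RIC8A. ADCY3, the most abundant cyclase, was at 56.4 to 62.3 FPKM in Cal27 against 58.8 and 55.4 FPKM in Cal27-shGRK2 and did not pass. Of 8 tested chaperones and binding partners of the subunits, AXIN1, a Wnt scaffold with an RGS-like domain, fell by 0.23 and the other 7 did not pass. The AXIN1 call was lost without any 1 library except Cal27 replicate 0 (adjusted p from 0.065 to 0.19). RIC8A, the chaperone of Gi, Gq and G12/13 alpha subunits, was at 63.7, 71.5 and 71.7 FPKM in Cal27 against 77.3 and 74.8 FPKM in Cal27-shGRK2, at a log2 fold change of 0.14 (limma adjusted p = 0.13, but 0.028 with a common total and 0.041 with the additional library).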

How the data were processed

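Stranded mRNA libraries were handled with Cuffdiff 2.2.1, TopHat2 2.1.0 and Bowtie2 2.2.6 against hg38, which the submitters' processing notes name. The annotation and strand setting are not given in the sources used here. A deposited table holds FPKM per library and per condition, and, for the comparison the authors ran, a test statistic (a score), log2 fold changes, q-values and p-values, as named in the file headers. An FPKM of 0.0001 was read as 0.

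Columns with identical values were counted once. Genes averaging 1 FPKM or more across the 5 libraries were log2-transformed after adding 1 and fitted in limma 3.58.1 (R 4.3.3, with trend and robust estimation, 3 residual degrees of freedom), with two-sided tests; p-values of the 13377 genes were adjusted together by Benjamini-Hochberg at a threshold of 0.05. Fold changes on this scale understate changes of low genes, and folds given as such are ratios of mean FPKM. The fit was tested on simulated data. The members and lists were chosen with earlier results of these data known. All 38 members are named, and the partners named are those past the threshold, up to 6 per direction, largest log2 fold change first, others being said to be chosen later. A further group of partners is not reported here. Gene positions and overlaps come from GENCODE version 29 (hg38), and promoters from RefSeq, with entries for 32 of the 38 names. Alternatives were a pseudocount of 0.1, 3 other filters, 3 scalings, another variance model, a replicate block, leaving out each library, and adding a library for Cal27-shGRK2 derived from the condition value of the authors.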

Additional observations from a re-analysis of the deposited data

How the results depend on the processing

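Over the 27 tested genes and the alternatives, 371 of 400 values kept direction and side of the threshold, 6 lost a call, 7 gained one and 16 changed sign, all of the last in genes that never passed. The number of members called was 4 to 8 when 1 library was left out, with 2 to 4 higher and 2 to 4 lower. It was 10 on rescaling to a common total, of which 6 were higher, and 9 with the replicate block, of which 5 were higher, GNB2 (adjusted p = 0.038) and RGS19 (0.039) being the added ones. The block ended the calls of PLCB2 (0.075), PLCB3 (0.069) and AXIN1 (0.072). The count of all genes called was 2600 to 4028 when 1 library was left out, and of partners 3 to 6, against 7 with all libraries, 4 at a minimum mean of 5 FPKM, where fewer genes were tested, and 4 with the replicate block. With 1 library left in an arm, its spread is assumed equal to that of the other group. Sign changes (log2) were GNG4, GNG5, GNG10 and RGS12 with a common total (0.0082, 0.056, 0.0043 and 0.0082), and GNG5, at -6.1e-05, under median-of-ratios scaling (0.0037), quantile normalization (0.035) and the replicate block (0.037). With 1 library left out, the other changes of sign gave ranges of -0.025 to 0.13 for GNB3, -0.042 to 0.14 for GNB5, -0.083 to 0.0033 for GNG4, -0.039 to 0.037 for GNG5, -0.12 to 0.038 for GNG10 and -0.13 to 0.072 for RGS12. The causes were not tested. The block pairs libraries that share only a number: the labels tie it to no common batch, there are 2 pairs, and their deviations correlated at 0.08 and 0.02. Depth is unknown, so how far it limits genes under 1 FPKM could not be given. Per the authors' table, the condition value equalled the mean of the columns within 1e-04 in 100% of genes for Cal27 and in 0.331% for Cal27-shGRK2.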
